A study of Mus musculus with 9 samples.

Results

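The comparison described here set E0771 cells carrying shPC28 against E0771 cells carrying shPC25, both being short hairpin RNAs directed against Pcx, the gene of pyruvate carboxylase. Its members were the 3 arrays labelled SHPC 28 and the 3 labelled SHPC 25, together 6 of the 9 arrays of the series, and all 19572 of the 22206 probe sets that carried 1 gene symbol. E0771 is a mouse mammary tumour line. All 3 groups were cells transduced with a lentiviral hairpin and grown untreated, with glucose at 5.6 mM and glutamine at 4 mM in a medium that held 10% FBS. The groups were shPC28, shPC25 and the scramble control hairpin (scram), with 3 arrays each, and the scram arrays served to place each difference between the hairpins relative to the control. Per the methods the cells were selected with puromycin, so each group was a selected population, and the hairpin and the population that carried it cannot be told apart. The labels do not state whether the 3 arrays of a group were separate cultures, so the spread behind the p-values is that between these samples and may be technical.

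Pyruvate carboxylase joins carbon dioxide to pyruvate in mitochondria and so makes oxaloacetate, which refills the tricarboxylic acid cycle and feeds aspartate synthesis and gluconeogenesis. A short hairpin RNA is cut by Dicer into a short guide that Argonaute uses to find and silence the target mRNA. Hairpins against the same gene share that target but have different guides, and each guide can also pair with other mRNAs, which is why knockdown experiments commonly use more than 1 hairpin. The question put to the data was which transcripts the hairpins did not change alike.

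Values are log2 signal per probe set as deposited, on a scale where a difference of 1 is a 2-fold difference. Array medians lay between 4.88 and 5.04. Across all probe sets the correlation between arrays was 0.995 to 0.996 within shPC28, 0.997 within shPC25 and 0.998 within scram. Between groups it was 0.989 to 0.991 for shPC28 with shPC25, 0.979 to 0.981 for shPC28 with scram and 0.992 to 0.993 for shPC25 with scram. Markers of cell types other than tumour cells were mostly low: 6 of 8 macrophage, 6 of 7 lymphocyte, 5 of 7 fibroblast and 5 of 7 endothelial markers stayed below 4.95, the median of all probe sets, in every group. Among epithelial markers, the keratin gene Krt8 was bright, with means of 14.46, 14.12 and 13.74 with shPC28, with shPC25 and in scram, whereas 6 of 10 epithelial markers were below 4.95, the keratin 18 gene Krt18 among them, and the mesenchymal marker Vim was above 17 on every array. The files hold no detection calls, so the size of a difference that involves a level below 4.95 is uncertain.

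Pcx itself differed between the hairpins. Its level was 7.01, 6.85 and 6.57 on the shPC28 arrays, 5.64, 5.43 and 5.53 on the shPC25 arrays and 9.18, 8.84 and 9.20 on the scram arrays. The 3 groups did not overlap, with shPC25 lowest and shPC28 between shPC25 and scram. The log2 difference of shPC28 over shPC25 was 1.28 ± 0.15 (SE, n = 3 arrays each; limma adjusted p = 0.000307), which is 2.42-fold more Pcx signal with shPC28. Thus shPC28 was the hairpin with more of the targeted transcript left.

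**Figure D1:**
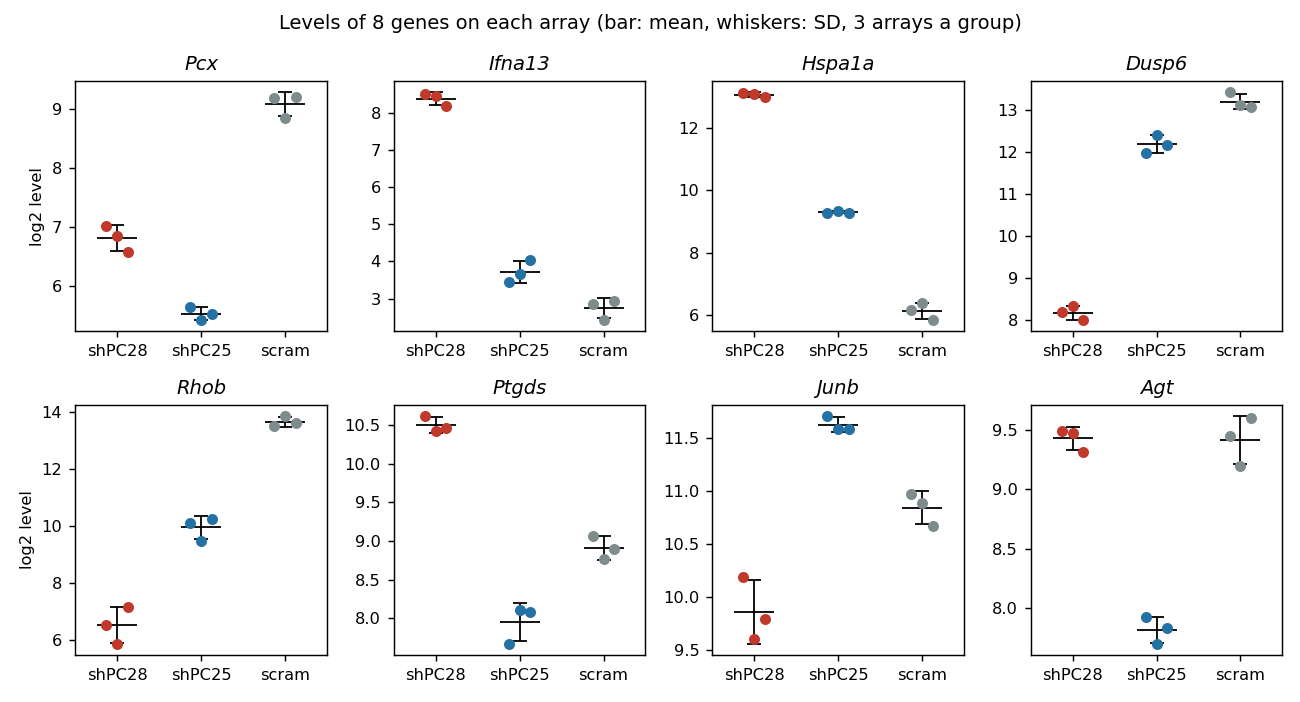
Log2 level of 8 genes on each of the 9 arrays, with a point for each array, a bar for the group mean and whiskers for the SD (3 arrays a group). Pcx and Agt were lowest with shPC25, Dusp6 and Rhob were lowest with shPC28, and Ptgds and Junb lay on opposite sides of scram with the 2 hairpins.

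Across the array, 5302 of 19572 named probe sets (27.1%) differed between shPC28 and shPC25 at an adjusted p under 0.05 in a limma fit over all 9 arrays. Of these, 2314 (11.8% of those tested) were higher and 2988 (15.3%) were lower with shPC28. At 2-fold or more there were 215 higher and 1179 lower probe sets, and at 4-fold or more 7 and 143. The 3 arrays of shPC28 and the 3 of shPC25 did not overlap for 7929 probe sets (40.5%). The median difference over all named probe sets was 0.04, and it was -0.09 when each array was centred on its 1080 olfactory receptor probe sets, which are silent in most tissues; the share of called probe sets that were higher was then 25.3%, against 43.6% as deposited. In bulk RNA of this kind, fewer cells of a type and less RNA per cell cannot be told apart.

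The scram arrays were used by all 3 contrasts, so the position of each gene relative to scram is given as a description. Against scram, 8378 named probe sets (42.8%) were called with shPC28 and 4136 (21.1%) with shPC25. Of the 5302 that differed between the hairpins, 4507 lay farther from scram with shPC28 and 283 lay farther from scram with shPC25. A further 52 were called on opposite sides of scram, and 460 were called against scram with neither hairpin. In the largest class, 2629 probe sets were lower with shPC28 than with shPC25, and in 2229 of them shPC25 too was below scram. For Pcx the order was the other way, with the lower level in shPC25.

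**Figure D2:**
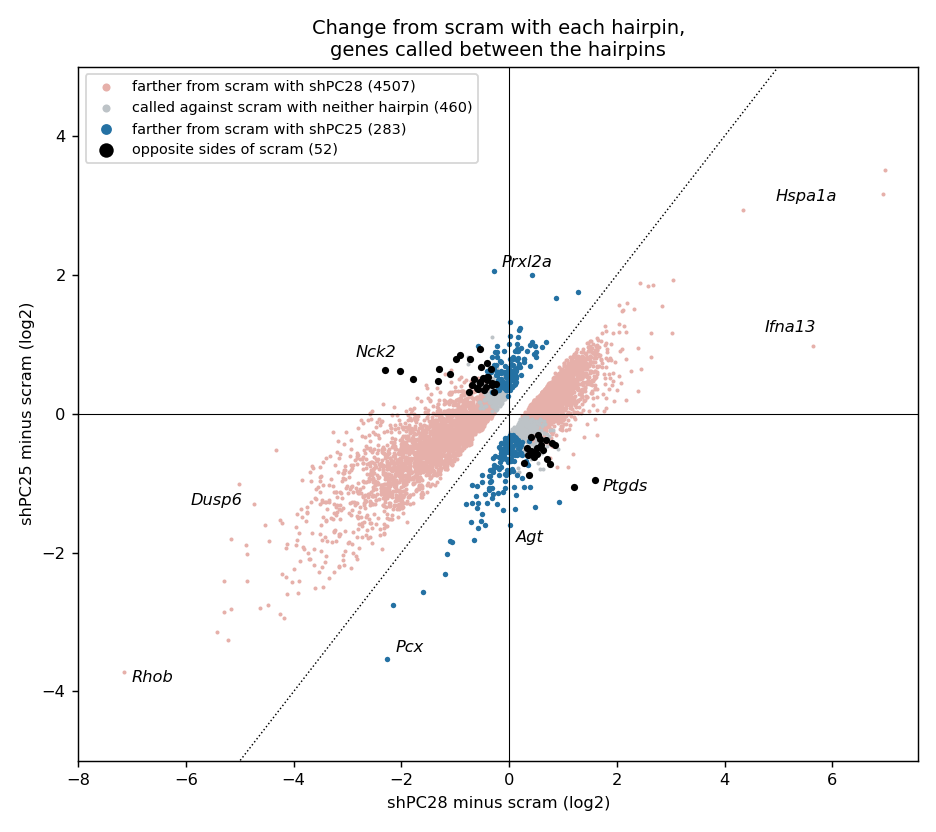
Log2 change from scram with shPC28 (horizontal axis) and with shPC25 (vertical axis) for the 5302 named probe sets that differed between the hairpins, 1 point each, coloured by class with the number in brackets; the dotted line marks equal change. Most points lie at larger changes with shPC28, and the class farther out with shPC25 holds 283 including Pcx. The 52 of the opposite class were called against scram with both hairpins. Points of the other classes also lie in the 2 quadrants where the hairpins moved apart.

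Ifna13, an interferon alpha gene, was higher with shPC28. Its level was 8.50, 8.44 and 8.18 with shPC28, 3.45, 3.67 and 4.03 with shPC25 and 2.85, 2.43 and 2.94 in scram. All shPC28 arrays stood more than 4 log2 units above every shPC25 array, and the shPC25 and scram arrays were below 4.95, so that the fitted difference of 4.66 ± 0.19 (SE; adjusted p = 7.13e-06) is not exact and was not ranked against those of brighter genes. Interferon alpha genes are closely related in sequence, so the probe set may register others of the family, which was not tested. None of the other interferon genes listed was called or had an unadjusted p under 0.05 in limma. They were Ifna1, Ifna2, Ifna4, Ifna5, Ifna6, Ifna11, Ifna12, Ifna14, Ifnb1, Ifne, Ifnl2 and Ifnl3. Only 11 of the 23 measured genes of their list had a highest group mean above 4.95. Of 38 interferon-stimulated genes measured, 1 was higher and 4 were lower (4 and 4 after quantile normalization), and their median was -0.05. The share called, 13.2%, was below the 27.1% of all named probe sets. The lower ones were Ifit2, an antiviral RNA-binding protein gene, at -2.43, Eif2ak2, the double-stranded RNA-dependent kinase PKR, at -1.84, the ubiquitin ligase gene Trim25 at -1.66 and the exonuclease gene Isg20 at -0.44. Herc6 was higher by 0.56. In the list of 23 interferon genes, their receptors and RNA sensors, Ifna13 included, 3 were higher and 4 lower (4 and 3 after quantile normalization), with 30.4% called. The receptor genes Ifngr1 and Ifnar1, the RNA sensor gene Tlr3 and the kinase gene Tbk1 were at -1.52, -0.48, -1.11 and -0.71, and the receptor gene Ifnar2 and Prkra, which encodes an activator of PKR, were higher by 0.51 and 0.83.

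Hspa1a and Hspa1b, which encode the stress-inducible chaperone Hsp70, were also far higher with shPC28. The level of Hspa1a was 13.12, 13.09 and 12.98 with shPC28, 9.28, 9.33 and 9.26 with shPC25 and 6.15, 6.37 and 5.84 in scram. That of Hspa1b was 13.27, 13.39 and 13.23 with shPC28, 9.67, 10.08 and 9.78 with shPC25 and 6.32, 6.22 and 6.44 in scram. In both genes the groups formed 3 separate steps, highest with shPC28 and lowest in scram. The differences between the hairpins were 3.77 ± 0.13 and 3.45 ± 0.13 (SE; adjusted p = 4.78e-06 and 4.78e-06). These genes are near-identical neighbours, so each probe set may register both.

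The 250 bases upstream of each gene are shown because heat shock genes are controlled through the heat shock element, the binding sequence of heat shock factor. Both are from RefSeq on GRCm38.p6, minus strand, for Hspa1a at chr17:34972157-34972406 and for Hspa1b at chr17:34959239-34959488, and capitals mark the only match to GAANNTTC on either strand, which began 104 bases before the start in both.
Hspa1a: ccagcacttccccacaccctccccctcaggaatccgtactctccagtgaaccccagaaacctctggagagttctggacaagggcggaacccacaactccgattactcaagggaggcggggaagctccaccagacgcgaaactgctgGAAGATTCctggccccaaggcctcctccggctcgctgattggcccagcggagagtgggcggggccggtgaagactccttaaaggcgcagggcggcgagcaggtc
Hspa1b: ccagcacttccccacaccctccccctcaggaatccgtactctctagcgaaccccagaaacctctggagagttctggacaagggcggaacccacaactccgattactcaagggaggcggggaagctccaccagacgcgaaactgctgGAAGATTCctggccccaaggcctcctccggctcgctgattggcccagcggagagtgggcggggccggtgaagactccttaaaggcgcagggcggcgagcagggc
The same letters occur in 6.69% of the 32851 upstream regions of this length in the table, and a match says nothing about binding in these cells. The sequences of the hairpins are not shown here.

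Other chaperones were divided. Of 20 measured heat shock genes, 5 were higher and 4 lower with shPC28, with a median of 0.09 as deposited and -0.04 after centring on olfactory receptors. The share called, 45%, was near the 45.3% of named probe sets above 4.95. The higher ones besides Hsp70 were the co-chaperone gene Dnajb1 by 0.46, Hspa4l by 0.34 and Hspb1 by 0.79, the last at a level below 4.95 in every group. The lower ones were Chordc1, Bag3, Dnajb4 and Hsph1, at -0.89, -0.75, -0.42 and -0.27.

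The next highest genes had varied roles. Rasgrp2, an activator of the GTPase Rap1, had 11.67, 11.61 and 11.62 with shPC28, 9.72, 9.48 and 9.86 with shPC25 and 9.86, 10.11 and 10.02 in scram, a difference of 1.95 ± 0.12 (SE). Fxyd2, a regulatory subunit of the sodium pump, had 11.90, 12.22 and 12.01 with shPC28, 10.05, 10.02 and 9.85 with shPC25 and 10.00, 9.59 and 9.37 in scram. Both stood apart with shPC28 alone, and their shPC25 and scram values were within 1 unit of each other. The remaining genes of this group were Lsp1, an actin-binding protein gene, higher by 1.98, the laminin gene Lama5 by 1.86, the DNA repair gene Rad52 by 1.86, the potassium channel gene Kcnq1 by 1.82, Tmem218 by 1.81 and Hddc2 by 1.77. Ptgds, Thrsp, Amotl2 and Psca, also among the 15 highest, are described with the classes below.

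Dusp6, the phosphatase that removes phosphate from the kinase ERK, was the lowest relative to shPC25. Its level was 8.18, 8.33 and 8.0 with shPC28, 11.98, 12.40 and 12.17 with shPC25 and 13.41, 13.10 and 13.07 in scram. Scram was highest, shPC25 was about 1 unit below it and shPC28 far below both, with no overlap. The difference was -4.01 ± 0.15 (SE; adjusted p = 4.78e-06), or 16.1-fold lower with shPC28. Rhob, a small GTPase gene, had 6.53, 5.86 and 7.14 with shPC28, 10.12, 9.48 and 10.25 with shPC25 and 13.51, 13.87 and 13.63 in scram, so that both hairpins lay below scram and shPC28 lay 3.44 further down. Hexim1, whose product holds the elongation kinase P-TEFb inactive, had 8.41, 8.63 and 9.24 with shPC28, 12.23, 12.08 and 12.05 with shPC25 and 14.13, 13.86 and 13.80 in scram, a difference of -3.36 ± 0.20 (SE).

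The other genes of the 15 lowest covered several functions. Lrrc8a, a subunit of the volume-regulated anion channel, differed by -3.45, and Slc12a2, the sodium-potassium-chloride cotransporter, by -2.86. Riox1, a histone demethylase gene, differed by -3.80 and Arid2, a subunit of a chromatin remodelling complex, by -2.92. The insulin receptor substrate gene Irs2 differed by -2.84, the ERK phosphatase gene Dusp7 by -2.86, and Chac1, which encodes an enzyme that degrades glutathione, by -2.99. Fbxo46, Chml, Larp4b and Tlnrd1 differed by -3.00, -2.92, -2.90 and -2.89. Some shPC28 values of Riox1, Lrrc8a, Chml and Tlnrd1 were below 4.95, so the sizes and ranks of their differences are uncertain. In 14 of these 15 genes the mean with shPC25 was also below scram, and the exception was Nck2.

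Genes called on opposite sides of scram numbered 52. In 30 of them shPC28 was below and shPC25 above scram, and in 22 shPC28 was above and shPC25 below. The smaller of the changes from scram had a median of 0.43 in each direction. Both changes were 0.5 or more in size in 9 of the 30 and 7 of the 22.

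Among the 30 genes with shPC28 below scram, Junb and Nr4a3 are growth factor-inducible transcription factor genes. Junb, a subunit of AP-1, had 10.19, 9.60 and 9.79 with shPC28, 11.71, 11.59 and 11.59 with shPC25 and 10.97, 10.89 and 10.67 in scram. Nr4a3, an orphan nuclear receptor gene, had 4.36, 3.91 and 4.52 with shPC28, 5.96, 5.99 and 6.10 with shPC25 and 5.17, 5.17 and 5.18 in scram. Its shPC28 levels were below 4.95, so the size of its differences with shPC28 is uncertain. In both, scram lay between the hairpins, with changes from it of -0.98 and -0.91 for shPC28, against 0.79 and 0.84 for shPC25. The differences between the hairpins were -1.77 ± 0.16 and -1.75 ± 0.15 (SE; adjusted p = 7.82e-05 and 6.58e-05). Myc, the growth-promoting transcription factor gene, was in the same class with smaller changes, -0.47 with shPC28 and 0.34 with shPC25. Myc stayed in that class under only 8 of 17 alternative settings, and Junb and Nr4a3 under all 17.

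The adaptor gene Nck2 and the golgin gene Gcc1 had the largest gaps of the 30. Nck2 had 5.01, 5.43 and 5.51 with shPC28, 8.06, 8.11 and 8.57 with shPC25 and 7.73, 7.52 and 7.62 in scram. Gcc1 had 7.46, 7.05 and 7.59 with shPC28, 10.04, 9.83 and 10.18 with shPC25 and 9.48, 9.58 and 9.14 in scram. Most of each gap lay on the shPC28 side, with changes from scram of -2.31 and -2.03 for shPC28, against 0.62 and 0.62 for shPC25. Cep85l had the same shape, at -1.79 and 0.50, as did Phlda1, a growth factor-inducible gene, at -1.30 and 0.65, and Tango6 at -1.10 and 0.57. The interleukin 17 receptor gene Il17ra, named after its values were seen, was at -1.33 and 0.47.

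Vps37b, a subunit of the endosomal sorting complex ESCRT-I, had 9.39, 9.54 and 9.53 with shPC28, 10.95, 10.89 and 11.17 with shPC25 and 10.17, 10.36 and 10.11 in scram. The changes from scram were nearly equal and opposite, -0.73 and 0.79. The small GTPase genes Rab5a and Rab30, named after their values were seen, were at -0.75 and -0.41 with shPC28, against 0.31 and 0.72 with shPC25. Others of the 30 were Slc1a4, a neutral amino acid transporter gene (-0.54 and 0.93), the ubiquitin ligase gene Trim32 (-0.66 and 0.49), Gabrr1 (-0.52 and 0.67) and the SUMO isopeptidase gene Uspl1 (-0.48 and 0.51), the first value being that of shPC28. For Slc1a4 the shPC28 arrays, at 11.02, 10.46 and 10.73, overlapped with scram, at 11.59, 11.23 and 11.01. It stayed in the class under 7 of 17 alternative settings. Dusp4, a nuclear phosphatase of ERK, and Dbt, a subunit of branched-chain ketoacid dehydrogenase, both named after their values were seen, were at -0.54 and -0.41 with shPC28, against 0.45 and 0.49 with shPC25.

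Among the 22 genes with shPC28 above scram, Ptgds was bright and Thrsp was dim, with shPC25 levels below 4.95. Ptgds, which encodes a prostaglandin D2 synthase, had 10.62, 10.43 and 10.46 with shPC28, 7.67, 8.11 and 8.08 with shPC25 and 9.07, 8.77 and 8.89 in scram. Thrsp, which encodes the lipogenic regulator Spot 14, had 6.34, 5.87 and 6.65 with shPC28, 4.05, 4.01 and 4.02 with shPC25 and 4.94, 5.22 and 5.10 in scram. The 9 values of each gene fell into 3 separate steps with scram in the middle. The differences were 2.55 ± 0.14 and 2.26 ± 0.18 (SE; adjusted p = 1.90e-05 and 5.06e-05).

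Lcn2, a secreted protein gene that binds bacterial iron carriers, had 11.10, 11.29 and 11.01 with shPC28, 9.59, 9.85 and 9.88 with shPC25 and 10.48, 10.37 and 10.44 in scram. Its changes from scram were of like size, 0.70 and -0.66. The developmental transcription factor gene Hand1 was at 0.62 with shPC28, against -0.53 with shPC25, and Tsc22d3, which encodes the glucocorticoid-induced protein GILZ, at 0.44 and -0.57. Tubb3, a tubulin gene, was at 0.43 and -0.59, Nicn1 at 0.85 and -0.45, Ddx25 at 0.51 and -0.59, and Rab17 at 0.41 and -0.54. The glutathione transferase genes Gstm1 and Gsta4 were higher with shPC28 than with shPC25 by 1.06 and 1.24.

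The same order of groups was seen for Lyz2, Laptm5 and Cd302, which are best known from macrophages and other blood cells. Lyz2, the lysozyme gene, had 10.52, 10.66 and 10.57 with shPC28, 9.44, 9.39 and 9.26 with shPC25 and 9.87, 9.77 and 9.72 in scram. Laptm5, a lysosomal membrane protein gene, had 13.65, 13.71 and 13.76 with shPC28, 12.69, 12.62 and 12.72 with shPC25 and 13.07, 13.16 and 13.14 in scram. In the macrophage list of 8 genes, 1 (Lyz2) was higher and 1 (Cd14) was lower, and the summed linear signal of the list was 1542 to 1705 with shPC28, 715 to 824 with shPC25 and 995 to 1121 in scram. That sum followed Lyz2: the defining markers Adgre1, Csf1r, Ptprc and Itgam had means of 3.06, 3.34, 3.10 and 2.44 with shPC28 and 3.47, 3.04, 3.41 and 2.47 with shPC25, all below 4.95, and none was called.

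**Figure D3:**
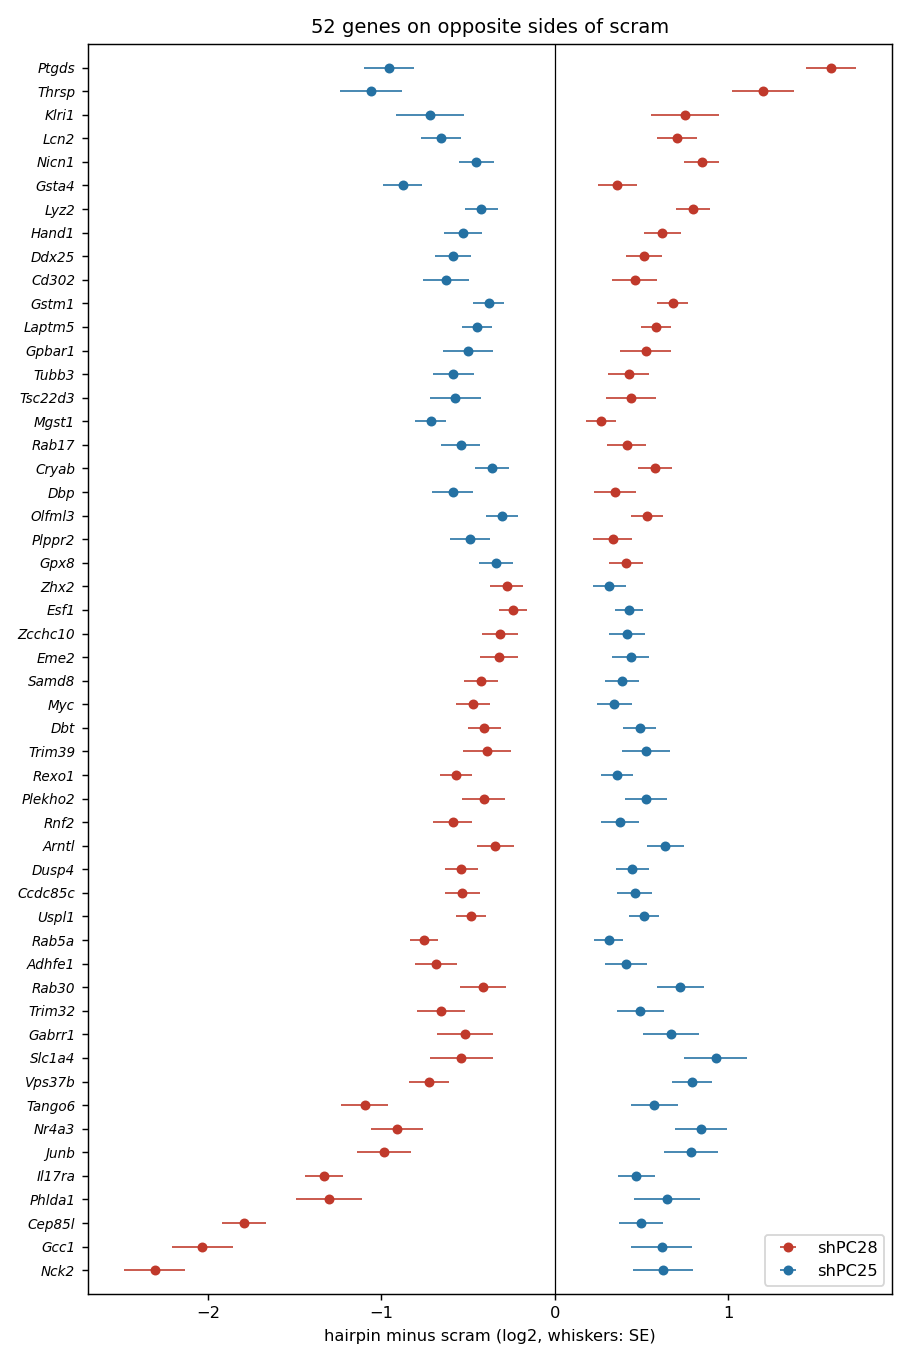
Log2 change from scram with shPC28 and with shPC25 for the 52 genes called on opposite sides of scram, ordered by the difference between the hairpins, with whiskers for the SE of the limma fit. The upper 22 rows have shPC28 above scram and the lower 30 have it below, and Nck2 and Gcc1 show the largest decreases with shPC28.

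Which genes lay on opposite sides depended on where the zero of each array was set, while their number was 54 after quantile normalization, 62 after centring on medians and 44 after centring on olfactory receptors. Of the 52, 13 were in the class under all 3 other scalings tried, and 10 were in it under all 17 alternatives that could be formed: Dbt, Dusp4, Junb, Laptm5, Lcn2, Nr4a3, Ptgds, Thrsp, Uspl1 and Vps37b. Without scram replicate 1, 2 or 3 the class held 22, 24 or 20 genes, of which 20, 23 and 19 were among the 52, and without shPC25 replicate 2 or 3 it held 32 or 28. The difference between the hairpins itself was called in the same direction under every alternative for 50 of the 52 genes, the exceptions being Klri1 and Gpbar1.

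Genes farther from scram with shPC25 were few, with 147 higher and 136 lower with shPC28. Without scram replicate 3 they numbered 182 in place of 283. Pcx was 1 of them. Agt, which encodes angiotensinogen, had 9.49, 9.48 and 9.32 with shPC28, 7.92, 7.70 and 7.83 with shPC25 and 9.45, 9.20 and 9.60 in scram. With shPC28 its values lay within the range of scram, and with shPC25 they lay more than 1 unit lower, a difference between hairpins of 1.61 ± 0.12 (SE; adjusted p = 4.42e-05). The tubulin gene Tuba8 showed the same order, at 0.10 from scram with shPC28, against -1.37 with shPC25, as did Trim29 (-0.12 and -1.39), the endothelin gene Edn2 (0.28 and -1.06), Crtam (0.39 and -1.06) and Dnajb13 (0.12 and -1.18), with the shPC28 value first. Prph, an intermediate filament gene, was below scram with both, at -0.65 and -1.82.

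Amotl2 and Psca belonged to the same class although their means lay on opposite sides of scram. Amotl2, an angiomotin family gene of the Hippo pathway, had 9.33, 8.59 and 9.72 with shPC28, 6.59, 7.64 and 6.84 with shPC25 and 8.08, 8.24 and 8.56 in scram. The shPC28 arrays were spread over more than 1 unit, and the change of 0.92 from scram was not called (adjusted p = 0.0522). Psca, a cell surface antigen gene, was at 0.47 (adjusted p = 0.127) with shPC28 and at -1.35 (adjusted p = 0.00366) with shPC25.

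On the other side, Prxl2a, a peroxiredoxin-like protein gene, had 5.68, 5.46 and 6.78 with shPC28, 8.08, 8.45 and 8.43 with shPC25 and 6.66, 5.93 and 6.19 in scram. The shPC28 and scram arrays overlapped and the shPC25 arrays stood above all of them, by 2.35 ± 0.33 (SE) over shPC28. The scavenger receptor gene Scarf1 was at 0.01 with shPC28, against 1.33 with shPC25, the cytokine gene Il24 at 0.18 and 1.21, and Med26, a Mediator subunit gene, at -0.23 and 0.89. The transcription factor gene Klf4 was at -0.22 and 0.98, and Spred3, an inhibitor of the Ras-ERK pathway, at 0.02 and 1.12. Serpinb9c, Dhrs9, Gpatch2l and Fgf11 completed the named genes, higher with shPC25 than with shPC28 by 1.57, 1.54, 1.14 and 1.02.

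Gene lists, chosen with earlier results of these data known, describe the difference between the hairpins by known functions. Some hold genes already named above for their large differences, such as Dusp6, Dusp7 and Hexim1. Their counts and medians are therefore a description and no further evidence. Beside the 27.1% of all named probe sets, 45.3% of the 10322 whose highest group mean was above 4.95 were called, and most members of most lists were above that level. The lowest median of the 35 lists was that of the feedback inhibitors of the Ras-ERK pathway, genes that ERK signalling induces and that damp it. Of 17 measured, 0 were higher and 14 lower with shPC28, with a median of -1.32 against 0.04 over all named genes. Besides Dusp6 and Dusp7, Dusp1 differed by -2.35, Dusp2 by -2.23, the Sprouty genes Spry2 and Spry4 by -2.41 and -2.49, and Spred1 and Spred2 by -1.32 and -1.78. Against scram the list median was -2.43 with shPC28 and -0.74 with shPC25.

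Immediate early genes, which respond within minutes to growth factors and stress, were also lower. Of 24, 0 were higher and 16 lower (1 and 15 after quantile normalization), with a median of -0.95. At an unadjusted p under 0.05 limma had, as deposited, 0 higher here and 0 among the ERK feedback genes. Fosl1, an AP-1 subunit gene, had 10.63, 10.71 and 10.70 with shPC28, 13.02, 12.71 and 13.00 with shPC25 and 14.20, 14.01 and 14.23 in scram. Zfp36, which encodes an mRNA-destabilising protein, had 4.62, 5.17 and 4.62 with shPC28, 6.42, 6.99 and 6.81 with shPC25 and 6.62, 6.14 and 6.77 in scram. For Fosl1 the groups formed separate steps, lowest with shPC28, whereas for Zfp36 the shPC25 and scram arrays overlapped and shPC28 alone was low. Ier3 differed by -2.40, Jun by -2.10, Klf2 by -1.96, Btg1 by -1.17 and Jund by -1.31. Fos, Egr1 and Egr2 were not called. The list median against scram was -0.94 with shPC28 and 0.07 with shPC25.

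Transcription elongation factors included Hexim1 and its partners. Of 15 measured, 1 was higher and 7 lower (53.3% called, against 45.3% of named probe sets above 4.95). Under the 3 other scalings and with the replicate block 0 were higher. Mepce, which caps the RNA that holds P-TEFb inactive, differed by -1.47, and the elongation factor genes Ell and Aff1 by -1.56 and -1.32. Among ephrins and their receptors, which signal between touching cells, 2 were higher and 6 lower of 19 (42.1% called). Efnb1 and Epha2 differed by -2.45 and -1.95.

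Nuclear genes of the respiratory chain and of ribosomes were shifted the other way, by small amounts in many genes. Of 36 genes of complex I, 27 were higher and 0 lower with shPC28, with a median of 0.46. Ndufb10 had 11.19, 11.19 and 11.19 with shPC28, 10.22, 10.13 and 10.25 with shPC25 and 9.95, 9.91 and 9.67 in scram, and Ndufb8, the member with the largest difference, was higher by 1.17 ± 0.19 (SE). For Ndufb10 the shPC28 arrays were above all others. For complexes III and IV and ATP synthase, 19 of 35 were higher and 0 lower (median 0.38), among them Atp5e by 1.16, Cox6b1 by 0.77 and Uqcrq by 0.61. The mitochondrial ribosome had 34 higher and 1 lower of 71 (median 0.36), with Mrps28 higher by 1.22 and Mrpl30 by 1.08, and Mrpl41, named after its value was seen, at -0.63. Cytosolic ribosome genes had 19 higher and 0 lower of 52 (median 0.24), with Rpl39 and Rps19 higher by 0.80 and 0.76. The shares called were 75% for complex I and 54.3% for complexes III and IV and ATP synthase. They were 49.3% for the mitochondrial ribosome, near the 45.3% of named probe sets above 4.95, and 36.5% for the cytosolic ribosome, below it. All members of these lists were above 4.95. At an unadjusted p under 0.05 limma had 1 lower gene in complex I and 0 in complexes III and IV and ATP synthase and in the cytosolic ribosome. After centring on olfactory receptors the number of higher genes was 18 for complex I, 12 for complexes III and IV and ATP synthase, 27 for the mitochondrial ribosome and 7 for the cytosolic ribosome. With the replicate block these numbers were 20, 16, 30 and 8.

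**Figure D4:**
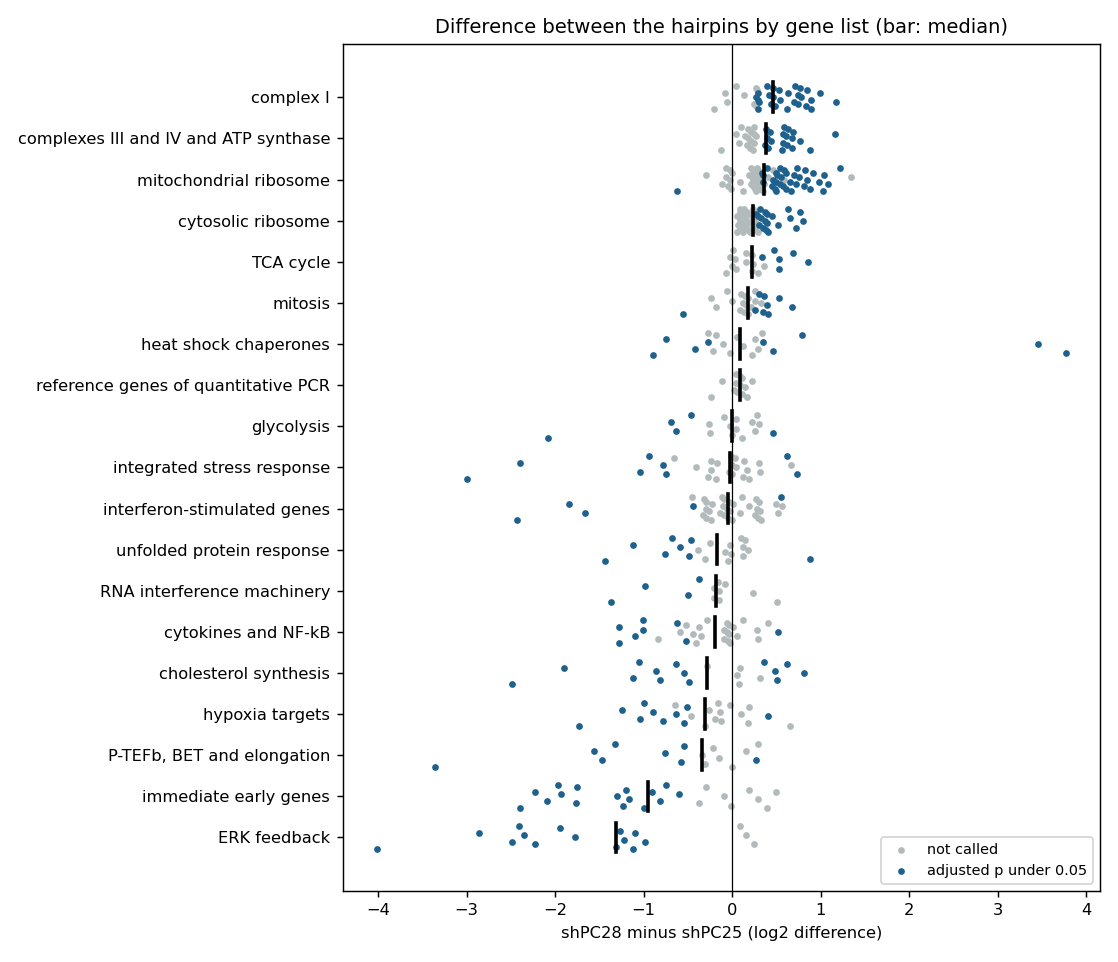
Log2 difference of shPC28 minus shPC25 for the members of 19 gene lists, a point for each gene and a bar for the list median, with genes at an adjusted p under 0.05 in blue. Medians range from -1.32 for ERK feedback genes to 0.46 for complex I, and the qPCR reference genes lie close to 0.

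In the tricarboxylic acid cycle, the pathway that pyruvate carboxylase feeds, 6 of 19 genes were higher and 0 lower (median 0.22), or 9 and 0 at an unadjusted p under 0.05 in limma. The share called, 31.6%, was near that of all named probe sets and below that of bright ones, and all 19 genes were bright. Suclg2 was higher by 0.86, the succinate dehydrogenase genes Sdhc and Sdhd by 0.69 and 0.53, the fumarase gene Fh1 by 0.53, Idh2 by 0.47 and Idh3b by 0.34. Sdhd had 13.49, 13.49 and 13.55 with shPC28, 13.00, 12.93 and 13.01 with shPC25 and 13.64, 13.70 and 13.69 in scram, so that shPC25 alone was low. The citrate synthase gene Cs and the malate dehydrogenase genes Mdh1 and Mdh2 were not called.

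Of 18 genes of pyruvate and malate metabolism, Pcx included, 5 were higher and 2 lower, a share of 38.9% that was also below that of bright probe sets. Pdp1, which encodes a phosphatase that activates pyruvate dehydrogenase, had 7.63, 7.71 and 7.08 with shPC28, 9.59, 9.81 and 9.71 with shPC25 and 9.52, 9.71 and 9.59 in scram. Here shPC28 alone was low, by 2.23 ± 0.16 (SE) against shPC25. The mitochondrial pyruvate carrier gene Mpc1 was higher by 0.41 and the malic enzyme genes Me1 and Me2 by 0.54 and 0.45, and Dlat, a pyruvate dehydrogenase subunit gene, was at -0.39. Pck2, the mitochondrial phosphoenolpyruvate carboxykinase gene, had a difference of 0.25 that was not called (adjusted p = 0.181). After centring on olfactory receptors the calls for Mpc1, Me1, Me2 and Pdk3 were lost, and Pcx was the only higher gene of the list.

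Genes that make and export lactate gave a split picture. Slc16a3, the lactate exporter MCT4, had 13.70, 13.55 and 13.61 with shPC28, 14.77, 15.03 and 15.13 with shPC25 and 16.12, 16.24 and 16.13 in scram. Slc16a1, the monocarboxylate transporter MCT1, had 14.75, 14.70 and 14.64 with shPC28, 15.48, 15.19 and 15.53 with shPC25 and 15.55, 15.61 and 15.55 in scram. For Slc16a3 the 3 groups formed separate steps, lowest with shPC28, while for Slc16a1 the shPC25 and scram arrays lay close together and shPC28 was low. The differences were -1.36 ± 0.11 and -0.70 ± 0.11 (SE; adjusted p = 6.20e-05 and 0.00152). Ldha, a lactate dehydrogenase subunit gene, and Bsg, the chaperone of both transporters, differed by 0.06 ± 0.09 and 0.03 ± 0.09 (SE; adjusted p = 0.701 and 0.823). In glycolysis, 1 of 17 was higher and 4 lower (29.4% called, below the 45.3% of named probe sets above 4.95). The hexokinase gene Hk2 was at -2.08, the glucose transporter genes Slc2a1 and Slc2a3 at -0.64 and -0.69, Pgam1 at -0.47 and Pfkm at 0.46.

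Hypoxia-inducible genes had 1 higher and 9 lower of 23 (median -0.30). The 43.5% called was near the 45.3% of bright probe sets, and 22 of the 23 genes were bright. Ero1a differed by -1.73, the growth factor gene Vegfa by -1.0, the oxygen sensor gene Egln3 by -1.24 and Adm by -0.78. Genes of the unfolded protein response had 1 higher and 7 lower of 20 (40% called), with Syvn1 and Sel1l, which act together in degrading misfolded proteins, at -1.44 and -1.12. In the integrated stress response, 2 of 28 were higher and 6 lower (28.6% called): Chac1 and Sesn2 were lowest (-2.99 and -2.40), while Ddit3, the transcription factor CHOP, and Adm2, both named after their values were seen, were higher by 0.62 and 0.73. Asns and Atf4 were not called. Growth arrest genes were divided as well, with 4 higher, Gadd45g at 1.41 among them, and 5 lower, Mdm2 at -1.70 among them, of 18 (50% called).

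Cholesterol synthesis had 5 higher and 9 lower of 19 (73.7% called, against 45.3% of named probe sets above 4.95). The lower included Hmgcs1, which makes the precursor of mevalonate, at -2.49, Sqle at -1.90 and Msmo1 at -1.12, and the higher, named after their values were seen, included Ebp at 0.81 and Pmvk at 0.62. Among fatty acid synthesis genes, 3 of 14 were higher and 4 lower (50% called, near that 45.3%). Thrsp was at 2.26 and Acly, which makes cytosolic acetyl-CoA, at -0.90. Of 19 targets of the antioxidant factor NRF2, 6 were higher, led by Nqo1 at 1.57, and 7 lower, among them Prxl2a (68.4% called).

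Cytokine and NF-kB genes had 1 higher and 7 lower of 30 (26.7% called, near the share of all named probe sets), with Csf1 at -1.28 and Icam1 at -1.09. Cd274, the gene of the checkpoint ligand PD-L1, had 3.63, 3.84 and 4.30 with shPC28, 4.63, 5.18 and 4.77 with shPC25 and 6.36, 6.16 and 6.09 in scram. It was lowest with shPC28 without overlap, by 0.94 ± 0.20 (SE) against shPC25 (adjusted p = 0.00768), at levels around or below 4.95 in both. Of 19 antigen presentation and checkpoint genes 4 were higher and 2 lower (31.6% called), with the immunoproteasome genes Psmb8 and Psmb9 higher by 0.86 and 0.66. Of 32 genes of DNA replication 8 were higher and 7 lower, or 4 and 8 after centring on olfactory receptors, and of 25 mitotic genes 8 were higher and 1 lower, or 1 and 2 after that centring. The shares called, 46.9% and 36%, were near or below that of bright probe sets.

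A list of the RNA interference and microRNA pathway held 12 measured genes, all bright. Of these, 0 were higher and 4 lower with shPC28 (33.3% called, below the 45.3% of named probe sets above 4.95). The lower ones were the helicase gene Ddx6 at -1.37, Tnrc6c, a silencing partner of Argonaute, at -0.98, the microRNA precursor exporter gene Xpo5 at -0.50 and the RNA helicase gene Ddx17 at -0.38. At an unadjusted p under 0.05 limma had 1 higher and 4 lower. Dicer1, Drosha and the Argonaute genes Ago1 to Ago4 were not called. Of 13 reference genes commonly used in quantitative PCR, 0 were called by limma and 1 had an unadjusted p under 0.05, with differences between -0.24 and 0.23.

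The genes called between the hairpins also differed in length, a property that the comparison did not use. Among named genes above 4.95, the median span from start to end in RefSeq (GRCm38.p6) was 15.9 kb for 1873 higher genes, 29.3 kb for 2803 lower genes and 22.4 kb for 5646 genes not called. With these genes divided by span into 10 groups of equal size, 30.3% were higher and 16.2% lower among the shortest. In group 9 from the short end, 10.4% were higher and 37.4% lower, and in group 10, the longest, 14.7% and 33.9%.

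**Figure D5:**
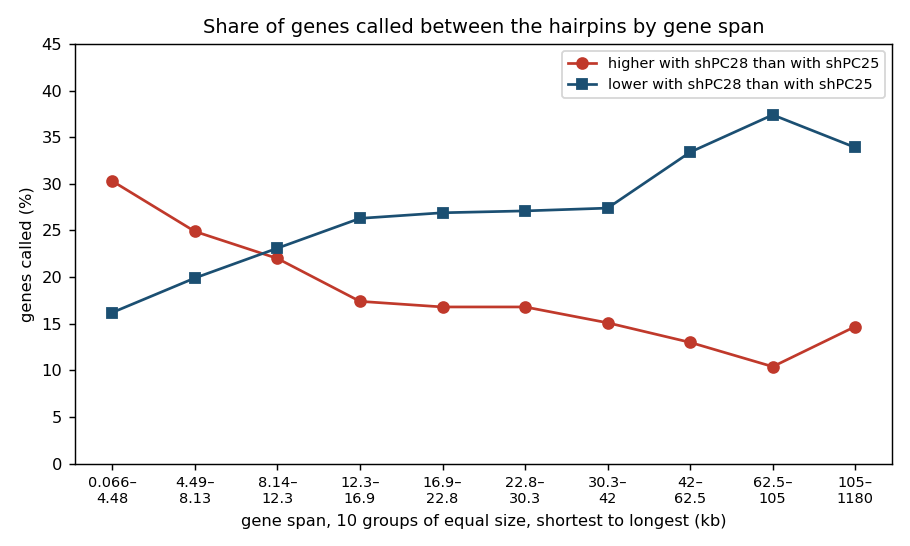
Share of named genes above a log2 level of 4.95 that were called higher (circles) or lower (squares) with shPC28 than with shPC25, in 10 groups of equal size by gene span, from the shortest to the longest (kb). Over the first 9 groups the share higher declines from 30.3% to 10.4% and the share lower climbs from 16.2% to 37.4%.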

How the data were processed

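Total RNA of E0771 cells was hybridised to mouse Clariom S arrays by the authors, and array signals were processed by them in the Transcriptome Analysis Console. The deposited values were taken as log2 signal that the authors had corrected for background and normalized, 1 value for each of 22206 probe sets on each of 9 arrays. The normalization algorithm is not given in the sources used here, and base 2 was read from the range of 1.51 to 18.64. The platform annotation gave 1 gene symbol to 19572 probe sets and none to 2634, and the Entrez IDs of all named probe sets matched RefSeq (GRCm38.p6). No probe set was removed.

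The analysis used limma 3.58.1 in R 4.3.3. A mean per group was fitted over all 9 arrays with lmFit and eBayes, with 1 shared spread, and two-sided p-values were Benjamini-Hochberg adjusted over all 22206 probe sets. An adjusted p under 0.05 was a call. The median SE of a difference between the hairpins was 0.16, and precision is limited by the number of arrays. The fit was tested on simulated data. A called gene was on opposite sides of scram when both hairpins were called against scram with different signs, and otherwise was assigned to the hairpin with the larger change where at least 1 was called.

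The members and gene lists were chosen with earlier results of these data known. Named genes were Pcx, then, among called genes whose 3 and 3 arrays did not overlap and whose highest group mean exceeded 4.95, the 15 highest and 15 lowest differences, 12 genes on opposite sides per direction by the smaller change, 10 per direction among those farther with shPC25, up to 4 members per list by the smallest p, and 11 genes of lactate, malate and the checkpoint, of which Mpc2 was not analysed here. Predicted genes were not named. For a gene with several probe sets the brightest stood for it in lists. Gene spans and upstream sequences are from RefSeq, GRCm38.p6.

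Alternatives were filters on dim probe sets, quantile normalization, centring on array medians or on 1080 olfactory receptor probe sets, other variance models, array weights, a fit on the 6 hairpin arrays, a replicate block, a 2-fold minimum and leaving out each array.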

Additional observations from a re-analysis of the deposited data

Results flagged for a closer look

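The hairpins were called on different sides of scram for 22 genes with shPC28 above and shPC25 below, and for 30 genes with shPC28 below and shPC25 above. The class was formed from genes called by limma between the hairpins and against scram with both, contrasts that share arrays, so those calls are no further evidence. Changes were small in most of them: the smaller change from scram ranged from 0.27 to 1.06 in the 22 and from 0.24 to 0.84 in the 30. The upper values were those of Thrsp, whose shPC25 levels were below 4.95, and of Nr4a3, whose shPC28 levels were below 4.95.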

How the results depend on the processing

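The deposited values fix the zero of each array, which limits any statement on small changes from scram, and with 3 arrays a group the dimmest probe sets carry little information. The count of 5302 probe sets stayed within 1.5 times under the filters, scalings, variance models, array weights and the replicate block, at 4141 to 6213, and was 4250 to 4991 with 1 array left out; with only the 6 hairpin arrays, where no class relative to scram can be formed, it was 4359. A 2-fold minimum left 1394, with 215 higher and 1179 lower. Without 1 array the higher count was 1668 to 2142 and the lower 2582 to 2849. Centring on olfactory receptors gave 1292 higher and 3824 lower.

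Genes on opposite sides of scram with shPC28 above, 22 as deposited, were 35 and 50 without the dimmest 25% and 50% of probe sets, 43 with trended and robust variance and 34 with array weights. Those with shPC28 below, 30 as deposited, were 66 without the dimmest 50% and 60 with trended and robust variance. Leaving out 1 array gave 10 to 24 above and 10 to 27 below, and without scram replicates 1, 2 and 3 in turn the class held 22, 24 and 20 genes. Quantile normalization kept 33 of the 52 genes, centring on medians 36 and centring on olfactory receptors 26.

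Genes farther from scram with shPC25, 283 as deposited, were 182 to 259 with 1 array left out, and those farther with shPC28, 4507 as deposited, were 3686 to 4171. Pcx differed by 1.15 to 1.54 over all settings and by 1.18 to 1.40 with 1 array left out, and was called in each. Deviations from the group means had correlations of -0.184 to -0.139 between same-numbered arrays of different groups. Between arrays with different numbers they were 0.047 to 0.133. Same-numbered arrays thus did not deviate together, but the replicate numbers carried some structure across groups, and its source was not tested. With the replicate block, 4141 probe sets were called, Pcx differed by 1.28 (adjusted p = 0.00164), 13 and 10 genes were on opposite sides with shPC28 above and below, and 162 were farther with shPC25. Of 179 named genes called between the hairpins, 167 were called under all 18 alternatives that gave them a value, 12 were lost under at least 1, and none changed sign.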

Other observations

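Genes of the circadian clock, chosen after their values were seen because Arntl and Dbp were among the genes on opposite sides of scram, were divided between the hairpins. Of 15 measured, 4 were higher with shPC28, 2 were lower and 9 were not called. Over all named probe sets 27.1% were called, and 45.3% of those above 4.95. Arntl, the core activator BMAL1, had 11.75, 11.95 and 11.62 with shPC28, 12.76, 12.84 and 12.66 with shPC25 and 12.11, 12.14 and 12.10 in scram. Dbp, a target of the clock, had 13.79, 13.93 and 14.07 with shPC28, 13.13, 12.93 and 12.92 with shPC25 and 13.74, 13.55 and 13.46 in scram. Arntl was lowest and Dbp highest with shPC28, and the reverse held with shPC25. Each stayed on opposite sides of scram under only 1 of the 3 other scalings. The repressor genes Per2 and Cry2 were higher with shPC28 by 0.56 and 0.71, and the activator gene Clock was lower at -0.34. Npas2 was higher by 0.64, at a level below 4.95 in every group. Per1, Per3, Cry1, Nr1d1, Nr1d2, Ciart, Nfil3, Bhlhe40 and Bhlhe41 were not called, although Per1, Per3, Nr1d1, Nr1d2 and Nfil3 differed from scram with both hairpins: Per1 was at 0.66 with shPC28 and 0.42 with shPC25, Per3 at -1.55 and -1.35, Nr1d1 at 1.39 and 0.99, Nr1d2 at -0.69 and -0.55, and Nfil3 at 1.31 and 1.57.

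Of the 2634 probe sets without a gene symbol, 527 (20%) differed between the hairpins, 296 of them higher and 231 lower with shPC28. Among the 1188 whose highest group mean was above 4.95, 448 (37.7%) were called, against 45.3% of the 10322 named probe sets above that level.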
